A study of Mus musculus with 8 samples.

Results

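The position of an epithelial cell along the small intestine is read from a small set of genes, and 9 of them were followed in sorted intestinal epithelial cells (IECs) of WT and CD1d-KO mice. They were Pdx1, Gata4 and Onecut2, transcription factors of the proximal (duodenal) end, Cdx1 and Cdx2, the caudal-type homeobox factors of the whole intestine, and Fabp6, Slc10a2, Fgf15 and Nr1h4, the bile acid genes of the distal end (ileum). The 9 were chosen by name from the 25239 genes of the count table, and all 9 had counts and were tested.

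Along the gut axis, GATA4 holds the jejunal programme and represses the ileal one, PDX1 acts in the duodenum, and CDX2 keeps the epithelium intestinal rather than gastric. Bile acids are taken up at the ileal brush border by the transporter ASBT (Slc10a2), carried through the cell by the ileal bile acid binding protein (Fabp6), and bound by the nuclear receptor FXR (Nr1h4). FXR switches on Fabp6 and Fgf15, the hormone that reaches the liver and lowers bile acid synthesis there.

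There were 4 WT samples, labelled C57BL/6Jax, and 4 CD1d-KO samples, labelled CD1d1/2 KO, from 4 mice each, all from the proximal small intestine with no treatment named. NKT cells are T cells that recognise lipids bound to CD1d and need it to develop, and the labels name no cell type or promoter to which the knockout is limited. The mice were young adults of both sexes, each sample held 150000 viable crypt cells sorted for EpCAM, with cells carrying CD45, CD31 or Ter119 (leukocytes, endothelium and the erythroid line) gated out. The labels give neither sex nor experiment. The study's methods describe sexes as matched between genotypes, but Y-linked counts were present in CD1d-KO 1 and 2 alone. By these counts, sex was not balanced between the 4 CD1d-KO and 4 WT samples.

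Total counts were 29743061 to 31629435 in CD1d-KO and 23610266 to 29763051 in WT. The targeted gene Cd1d1 was counted 8, 3, 5 and 0 times in the CD1d-KO samples, against 81, 70, 94 and 50 times in the WT samples. The 8 epithelial markers were high in every sample, with a summed level of 14031 to 14554 TPM (counts scaled for gene length and sample total) in CD1d-KO and 13646 to 15156 in WT, and none was called different. The most abundant, Krt8, Krt19, Epcam and Cdh1, had log2 fold changes of -0.01, -0.06, 0.08 and 0.06 (adjusted p from 0.367 to 0.976). Defining markers of other cells were low or listed at 0. Exocrine pancreas markers summed to at most 0.490 TPM with 4 of 9 at 0 in all samples, and endothelial and erythroid markers summed to at most 0.762 TPM. Of the islet list, the insulin genes Ins1 and Ins2 were at 0. With Iapp the list summed to 7.97 to 23.8 TPM in CD1d-KO and 6.89 to 13.7 TPM in WT. Iapp had a log2 fold change of 0.53 and was not called. Among samples without Y-linked counts it was called (0.98, adjusted p = 0.0359 by DESeq2), as were 2.57% of all genes. Markers of several kinds moved with genotype. Tff2 and Muc6 are markers of Brunner's or gastric glands. They summed to 2.04 to 24.9 TPM in CD1d-KO and 47.4 to 390 TPM in WT. Muc6 was called lower, 1 of 2 tested. Tff2 was not called, but was by edgeR (log2 fold change -4.37, adjusted p = 0.0203), where 1.57% of all genes were. Neither was called among samples without Y-linked counts. Stomach markers summed to 59.2 to 117 TPM in CD1d-KO and 170 to 967 TPM in WT, and 6 of the 13 tested were called lower in CD1d-KO (2.38% of all genes were). With Atp4a, called higher, 7 stomach markers were called in all, and this count ranged from 2 (without WT 3) to 10 (without CD1d-KO 4) when 1 sample was left out, with 3 or 4 without any other sample. It was 0 among samples without Y-linked counts and 1 with these counts as a term. Leukocyte markers summed to 5.60 to 9.06 TPM in CD1d-KO and 9.71 to 47.1 TPM in WT, with Cd3g, Cd8a and Coro1a called lower, 3 of 11 tested. These calls were unstable: 0 were made by edgeR, with the low-count filter, among samples without Y-linked counts, or without CD1d-KO 2 or WT 1, and 1 without CD1d-KO 1, CD1d-KO 3 or WT 2. Counts of the Y-linked genes Ddx3y, Eif2s3y, Kdm5d and Uty, called higher in CD1d-KO, were present in CD1d-KO 1 and 2 alone, at 6235 and 7293 against 0 or 1 in the other 6 samples. The part of any of these in the results was not tested. In bulk samples such as these, fewer cells of a type and less RNA per cell cannot be told apart.

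The sequences just upstream of the start of Fabp6 and Slc10a2 are shown because these genes are the cytosolic carrier and the uptake transporter of ileal bile acid handling, and both were counted in these proximal samples. Sequences are from RefSeq on GRCm38.p6, the assembly of mm10, which had an entry for 5 of the 9 genes (Pdx1, Cdx2, Fabp6, Slc10a2 and Nr1h4). Each line gives the 250 bases before the start of the transcript, 5′ to 3′ on the gene's own strand. Fabp6 was read from chr11:43601563-43601812 and Slc10a2 from chr8:5105288-5105537, both on the minus strand. Capitals mark a match to an inverted repeat of the FXR type in Fabp6 and to the HNF1 motif in Slc10a2.
Fabp6: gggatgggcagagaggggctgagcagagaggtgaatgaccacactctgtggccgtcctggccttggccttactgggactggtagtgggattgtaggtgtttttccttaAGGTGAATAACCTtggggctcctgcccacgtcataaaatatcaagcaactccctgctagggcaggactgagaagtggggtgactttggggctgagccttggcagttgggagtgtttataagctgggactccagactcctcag
Slc10a2: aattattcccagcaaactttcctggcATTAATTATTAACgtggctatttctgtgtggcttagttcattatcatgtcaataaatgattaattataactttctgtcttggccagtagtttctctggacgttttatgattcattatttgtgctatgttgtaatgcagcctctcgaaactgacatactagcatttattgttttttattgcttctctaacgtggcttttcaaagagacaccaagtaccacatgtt

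The inverted repeat searched was AGGTCA and TGACCT with 1 free base between them, and a loosened form, AGGTNA and TNACCT, matched Fabp6 from base -142 to base -130, counted back from the start site. This loosened form was present in 6 of 32851 promoter windows (0.0183%) and the strict form in 2 (0.00609%). The HNF1 motif searched was GTTAAT and ATTAAC with 1 free base between them. A form with the opening G left free matched Slc10a2 from base -224 to base -212. That form was found in 20 windows (0.0609%) and the strict one in 3 (0.00913%). The loosened forms were chosen after these sequences had been read, and no strict form matched in the 5 genes. The CDX core TTTAT, read on both strands, occurred 4 times in the Slc10a2 stretch and 2 times in each of Fabp6 and Nr1h4. It was not found in those of Pdx1 and Cdx2, and 37.3% of all windows hold it. The GATA letters AGATAA occurred in the Nr1h4 window, as in 9.99% of all windows. That window, chr10:89506659-89506908 on the minus strand, lies inside the span of Nr1h4 in the count table. It thus precedes an internal start and not the outermost one. No motif overlapped the capitals shown. These are matches of letters, not sites of binding.

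None of the 9 genes was called different between CD1d-KO and WT at an adjusted p under 0.05 (DESeq2 Wald test, Benjamini-Hochberg over all genes tested), where 622 of 15446 genes (4.03%) were called. With 9 genes, a share of 0 is not set apart from that background. The log2 fold change of CD1d-KO over WT was negative for 8 genes and positive for Cdx1, with a median of -0.19 beside 0.00 over all genes tested. At an unadjusted p under 0.05 only Slc10a2 passed (1 of 9), against 15.3% of all genes. The 4 CD1d-KO and 4 WT values overlapped for every one of the 9 genes, whereas they did not overlap for 9.61% of genes. By edgeR's quasi-likelihood test, 0 of the 9 were called as well, against 1.57% of genes.

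**Figure D1:**
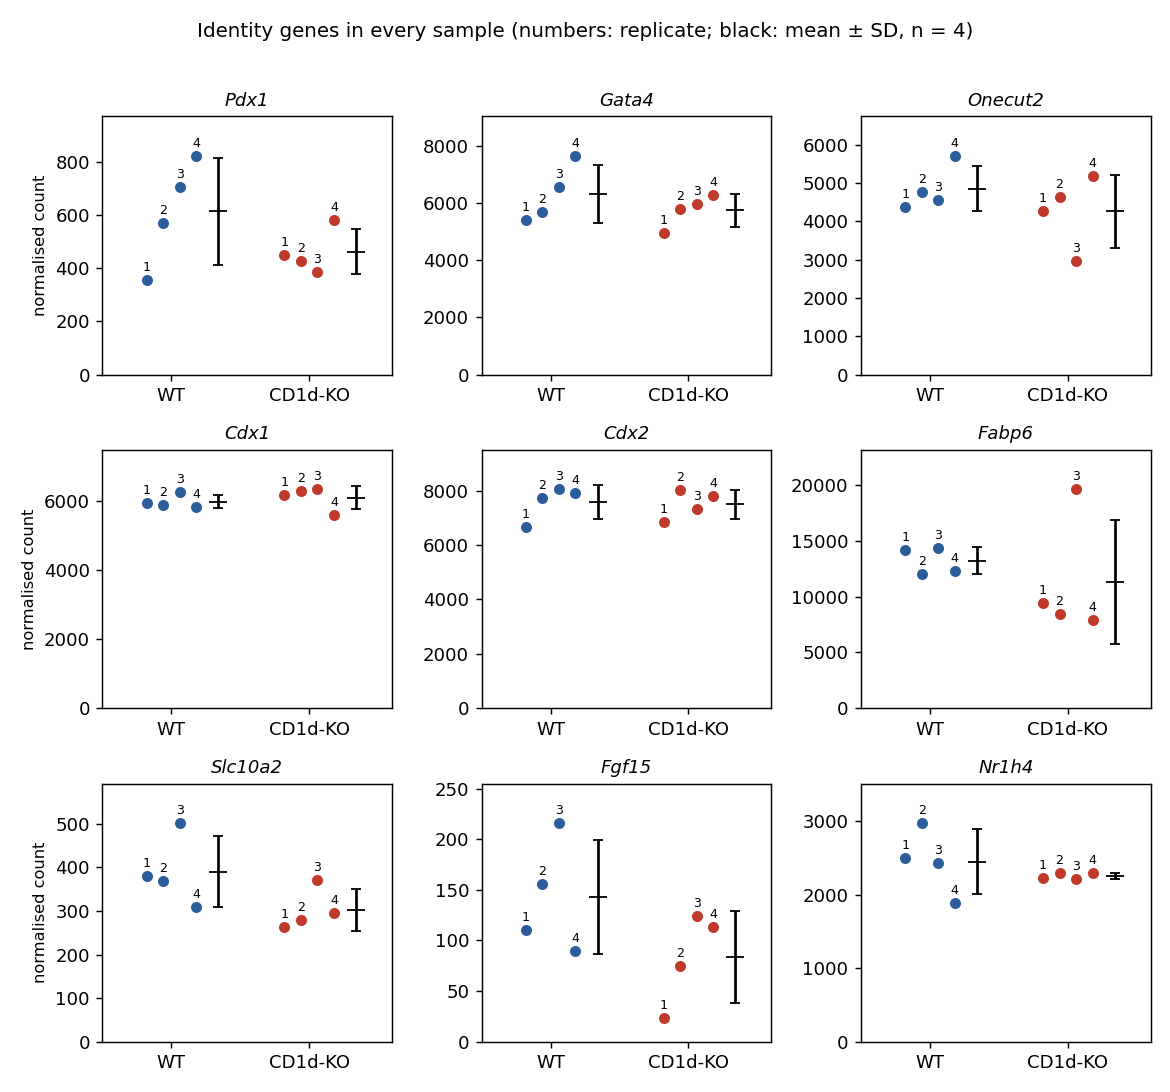
Normalised count (linear axis from 0) of each of the 9 genes in 4 WT (blue) and 4 CD1d-KO (red) samples, with the replicate number above each point and the mean ± SD (n = 4) in black. The genotypes overlap in every panel, and CD1d-KO 3 stands above all other samples for Fabp6, at 19618.

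Among the proximal factors, Pdx1 was the least counted, in normalised counts (counts divided by a size factor per sample), and the most variable in WT. Pdx1 (mm10 chromosome 5, 147270097 to 147275848, plus strand) encodes the homeodomain factor of duodenum and pancreas. Its normalised counts were 451, 428, 386 and 584 in CD1d-KO 1 to 4 and 354, 571, 707 and 824 in WT 1 to 4. WT 1 was the lowest of the 8 samples and WT 3 and WT 4 were the highest, so the WT values enclosed all the CD1d-KO values. The means were 462 ± 85.4 in CD1d-KO and 614 ± 202 in WT (SD, n = 4 each). This gave a log2 fold change of -0.41 (SE 0.21, 95% interval -0.82 to 0.00), with an adjusted p of 0.335. Without WT 1 it was -0.60 (SE 0.16) with an adjusted p of 0.00951, a call that rests on leaving out that 1 sample (2.65% of all genes were called without it).

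Gata4 (mm10 chromosome 14, 63198914 to 63245271, minus strand), the zinc finger factor of duodenum and jejunum, had normalised counts of 4947, 5798, 5971 and 6272 in CD1d-KO, against 5398, 5684, 6581 and 7661 in WT. WT 3 and WT 4 were again the highest samples, and the remaining WT values lay among those of CD1d-KO. Its log2 fold change was -0.14 (SE 0.11, interval -0.36 to 0.08), adjusted p = 0.635.

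Onecut2 (mm10 chromosome 18, 64340364 to 64398488, plus strand), a cut-homeodomain factor of the duodenum, had normalised counts of 4276, 4629.8, 2954 and 5189 in CD1d-KO, against 4382, 4757, 4562 and 5708 in WT. CD1d-KO 3 was the lowest of the 8 samples and WT 4 the highest, with the other 6 close together. For Onecut2 the log2 fold change was -0.19 (SE 0.14, interval -0.47 to 0.10), adjusted p = 0.612. Its relative Onecut3 had a mean of 50.9 normalised counts in CD1d-KO and 53.7 in WT, and Onecut1 had at most 0.977.

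The stomach markers are given beside the proximal factors, since Pdx1 is also expressed in the antrum, the part of the stomach next to the duodenum. The summed TPM of the 15 stomach markers in the table was 104, 96.9, 59.2 and 117 in CD1d-KO 1 to 4, against 172, 170, 967 and 512 in WT 1 to 4. In CD1d-KO 1, 2, 3 and 4, the number of these markers at 0 was 5, 6, 7 and 1, and in WT 1 to 4 it was 1, 2, 1 and 0. The called markers were Cldn18, Anxa10, Ctse, Vsig1, Muc5ac and Gast, lower in CD1d-KO, and Atp4a, higher (log2 fold change 0.93). Vsig1 was called in 13 of 16 alternative fits, Anxa10 and Gast in 12, Cldn18 in 7, Ctse and Muc5ac in 6 and Atp4a in 5. Muc6, a mucin of Brunner's glands and gastric glands, was lower too (log2 fold change -1.70, SE 0.47, adjusted p = 0.0137), a call made in 10 of 16 alternative fits and lost without CD1d-KO 2 or CD1d-KO 3. WT 3 and WT 4, with the highest stomach sums, were also the 2 highest samples for Pdx1 and Gata4. For Onecut2, WT 3 was below WT 2, WT 4, CD1d-KO 2 and CD1d-KO 4. A score of the stomach markers was added as a further term in the fit. The log2 fold changes of Pdx1, Gata4 and Onecut2 were then 0.50 (SE 0.29), 0.22 (SE 0.18) and 0.18 (SE 0.24). These were of opposite sign to those without it, and none was called (0.744% of all genes were). The score was -2.47 to 0.15 in CD1d-KO and 0.63 to 3.29 in WT, with no overlap. This fit therefore cannot tell genotype and score apart, and the change of sign is not interpreted.

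**Figure D2:**
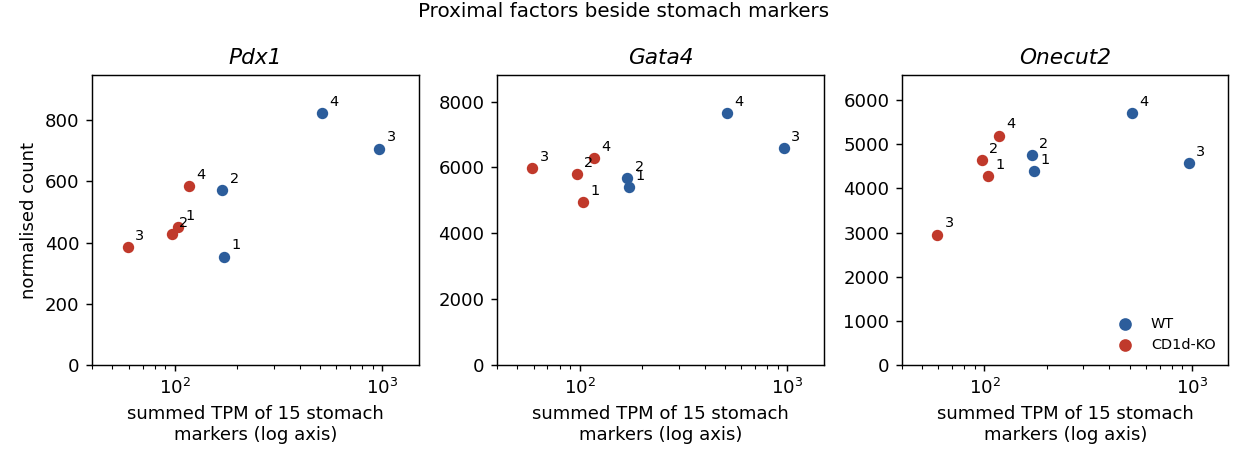
Normalised count of Pdx1, Gata4 and Onecut2 (linear axis from 0) against the summed TPM of 15 stomach markers (log axis), each point 1 sample, numbered by replicate, WT in blue and CD1d-KO in red. The red points lie between 59.2 and 117 TPM and the blue points between 170 and 967 TPM, while the heights of the genotypes overlap.

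The CDX factors were the steadiest of the 9 genes. Cdx1 (mm10 chromosome 18, 61018862 to 61036199, minus strand) had normalised counts of 6181, 6279, 6339 and 5598 in CD1d-KO, against 5936, 5897, 6264 and 5825 in WT. Its highest sample was 1.13 times its lowest, and the log2 fold change was 0.03 (SE 0.06, adjusted p = 0.907). The 95% interval of -0.09 to 0.15 leaves room for a ratio of CD1d-KO to WT between 0.940 and 1.11.

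Cdx2 (mm10 chromosome 5, 147300900 to 147307249, minus strand), the master regulator of intestinal identity, had normalised counts of 6853, 8028, 7325 and 7817 in CD1d-KO, against 6664, 7749, 8057 and 7923 in WT. Replicate 1 of each genotype was lowest, and the other samples were interleaved. Its log2 fold change was -0.02 (SE 0.08, adjusted p = 0.965), and its interval of -0.17 to 0.14 corresponds to a ratio between 0.886 and 1.10. The ratio of Cdx2 to Cdx1 in TPM lay between 0.904 and 1.14 over the 8 samples. The remaining caudal gene, Cdx4, had at most 0.960 normalised counts in any sample.

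**Figure D3:**
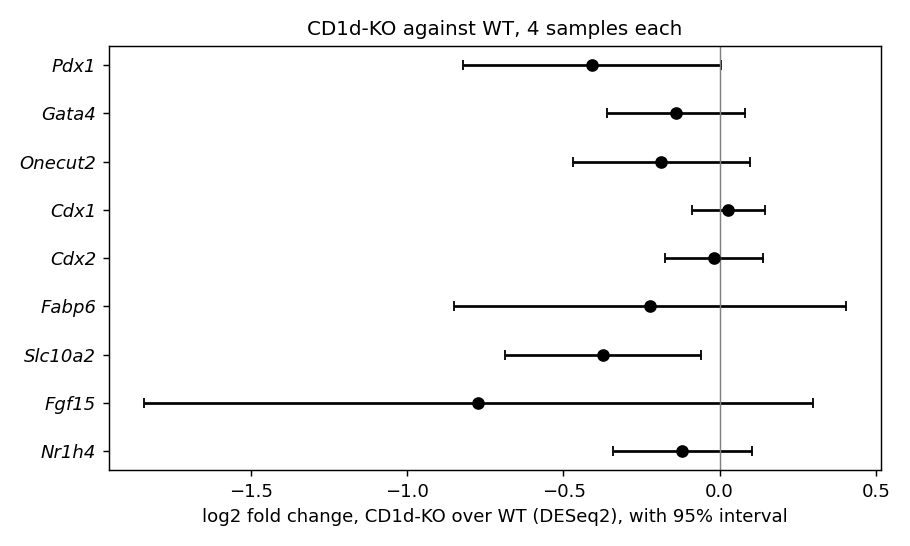
Log2 fold change of CD1d-KO over WT (points) with its 95% interval (bars) for the 9 genes, from DESeq2 with 4 samples per genotype. The intervals of Cdx1 and Cdx2 are the narrowest and that of Fgf15, from -1.84 to 0.30, is the widest, and Slc10a2 alone has an interval below 0 (-0.69 to -0.06).

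Of the distal genes, Fabp6 was by far the most abundant, and a single sample decided its comparison. Fabp6 (mm10 chromosome 11, 43596040 to 43601562, minus strand) had normalised counts of 9388, 8456, 19618 and 7892 in CD1d-KO, against 14209, 12027, 14382 and 12327 in WT. CD1d-KO 1, 2 and 4 lay below all WT samples, and CD1d-KO 3 lay above all of them. The means were 11339 ± 5554 in CD1d-KO and 13236 ± 1231 in WT (SD, n = 4 each), and the log2 fold change was -0.22 (SE 0.32, interval -0.85 to 0.40, adjusted p = 0.844). CD1d-KO 3 was 2.29 times the mean of the other CD1d-KO samples and 1.36 times the highest WT sample.

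Without CD1d-KO 3, the 3 remaining samples had a mean of 8579 ± 756 normalised counts of Fabp6 (SD, n = 3), the WT mean was 1.54-fold higher, and the fitted log2 fold change was -0.63 (SE 0.09, adjusted p = 2.6e-09), in a fit where 4.64% of all genes were called. The value with all 8 samples stands as the result. Y-linked counts were present in CD1d-KO 1 and 2 and not in CD1d-KO 4, and these 3 samples lay together for Fabp6. When the 2 samples with Y-linked counts were left out, CD1d-KO 3 and 4 remained against 4 WT and the log2 fold change was 0.057, not called where 2.57% of all genes were. Across 11721 genes averaging 50 or more normalised counts, CD1d-KO 3 stood apart from its genotype (a gap to the nearest sample above Dixon's 95% limit) for 2.31% of genes, the highest share of the 8 samples. WT 1 was close behind at 2.09%, and the lowest share was 0.631%, in WT 2. Chance alone also flags some genes at a 95% limit, so these shares do not show that CD1d-KO 3 was an outlying sample.

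**Figure D4:**
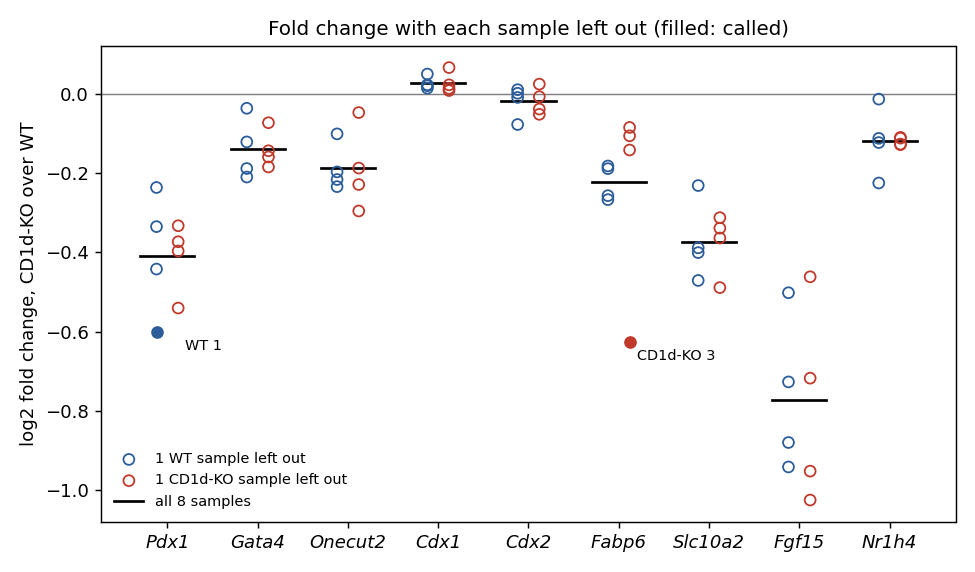
Log2 fold change of CD1d-KO over WT with all 8 samples (black lines) and with each sample left out in turn (circles, blue for a WT and red for a CD1d-KO sample left out, filled where called). Only Fabp6 without CD1d-KO 3 (-0.63) and Pdx1 without WT 1 (-0.60) are filled.

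Slc10a2, the apical uptake transporter, had the lowest p of the 9 genes. Slc10a2 (mm10 chromosome 8, 5083219 to 5105287, minus strand) had normalised counts of 263, 279, 370.5 and 295 in CD1d-KO, against 381, 369.9, 502 and 309 in WT. CD1d-KO 1, 2 and 4 were the 3 lowest samples, as for Fabp6, and CD1d-KO 3 lay within the WT values. The means were 302 ± 47.6 and 391 ± 80.8 (SD, n = 4 each), with a log2 fold change of -0.37 (SE 0.16, unadjusted p = 0.0193, adjusted p = 0.198 by DESeq2). Its fold change was negative in all 16 alternative fits, from -0.49 to -0.19, and it was called in none of them (adjusted p 0.0520 to 0.931).

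Fgf15, the ileal hormone, was scarce in these proximal samples. Fgf15 (mm10 chromosome 7, 144896532 to 144900951, plus strand) was counted 26, 78, 127 and 118 times in the CD1d-KO samples and 112, 149, 223 and 73 times in the WT samples. By exact Poisson 95% intervals, which cover counting error only, the lowest count of 26 allows 17.0 to 38.1 and the highest of 223 allows 195 to 254. Normalised counts were 23.2, 74.3, 124 and 113 in CD1d-KO, against 110.0, 156, 216 and 89.2 in WT, a 9.30-fold range from lowest to highest. Its log2 fold change of -0.77 was the most negative of the 9 genes but also the least certain (SE 0.55, interval -1.84 to 0.30, adjusted p = 0.561). CD1d-KO 3 and 4 had more Fgf15 than WT 1 and WT 4. The lowest samples, CD1d-KO 1 and CD1d-KO 2, were those with Y-linked counts. With both left out the log2 fold change of Fgf15 was -0.27 (SE 0.31). With Y-linked counts as a term it was -0.27 (SE 0.38). Fgf15 was called in neither fit, where 2.57% and 3.04% of all genes were.

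Nr1h4, which encodes FXR (mm10 chromosome 10, 89454234 to 89533622, minus strand), had normalised counts of 2229.8, 2294, 2212 and 2299 in CD1d-KO, against 2497, 2979, 2439 and 1895 in WT. The CD1d-KO samples lay close together, inside the WT range, with a coefficient of variation of 1.97% against 18.1% in WT. Nr1h4 had a log2 fold change of -0.12 (SE 0.11, interval -0.34 to 0.10), adjusted p = 0.715.

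Scaled for length, the 9 genes spanned a wide range of levels, and Fabp6 led with a mean of 1996 TPM (1270 to 3077 over 8 samples), at the 99.8th percentile of all 25239 genes listed, with or without a count. Cdx2 followed at 293 TPM (261 to 320) and Cdx1 at 287 TPM (263 to 307). These 2 neighbours did not differ beyond their spread, since Cdx2 was above Cdx1 in 5 of 8 samples. Gata4 had 147 TPM (123 to 187), Nr1h4 83.7 TPM (67.5 to 105), Onecut2 28.3 TPM (17.6 to 35.5) and Pdx1 22.1 TPM (14.7 to 34). Onecut2 was above Pdx1 in 7 of 8 samples. Slc10a2 had 7.03 TPM (5.47 to 10.2) and Fgf15 5.19 TPM (1.09 to 9.93). Every other gene in this order was above the next in all 8 samples. Thus the distal carrier Fabp6 stood above every proximal factor, whereas the distal genes Slc10a2 and Fgf15 stood below them. Without length scaling, Onecut2, which has the longest transcript of the 9 at 13391 bases, ranked above Nr1h4.

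**Figure D5:**
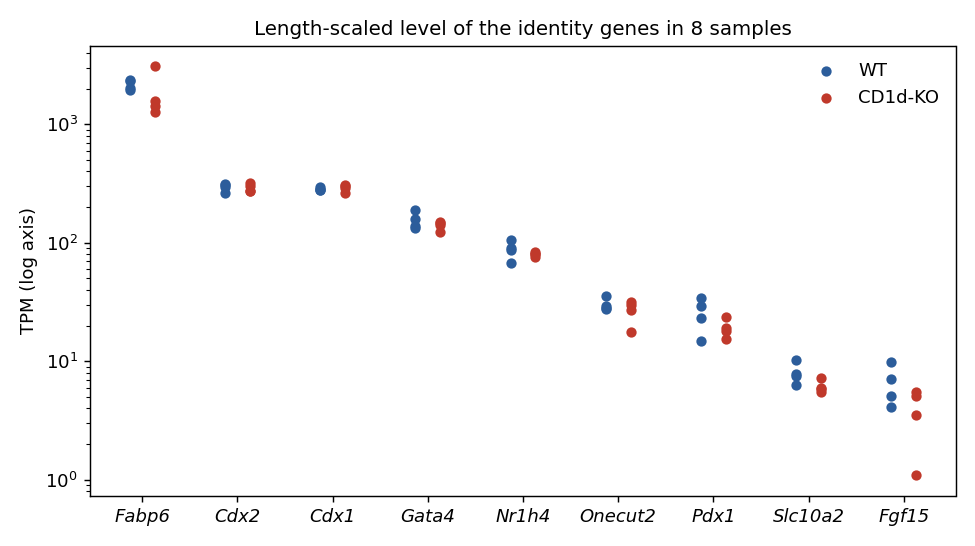
TPM (log axis) of the 9 genes in each of 4 WT (blue) and 4 CD1d-KO (red) samples, ordered by mean. Fabp6 lies between 1270 and 3077 TPM, Cdx1 and Cdx2 overlap, and Fgf15 is the lowest on average at 5.19 TPM.

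Around the members, 21 other intestinal transcription factors were listed, 16 were tested and none was called, with a median log2 fold change of 0.05. Hnf4a, the nuclear receptor that drives enterocyte genes, had 38755 ± 2106 normalised counts in CD1d-KO and 39106 ± 1982 in WT (SD, n = 4 each). Its log2 fold change was -0.01 (SE 0.06), adjusted p = 0.968. Hnf4g had a log2 fold change of 0.24 (adjusted p = 0.255), Klf5 of 0.10 (adjusted p = 0.526) and Elf3 of -0.17 (adjusted p = 0.120). The hindgut genes Hoxa13, Hoxb13 and Hoxd13 were listed at 0 in all 8 samples.

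Of 16 further genes of the proximal small intestine, all tested, 1 was called, a share near the 4.03% of all genes. Slc11a2 encodes DMT1, the apical importer of ferrous iron. It had 1778 to 2069 normalised counts in CD1d-KO (1957 ± 125, SD, n = 4) and 2199 to 2330.2 in WT (2283 ± 58.3, SD, n = 4), with no overlap, as for 9.61% of all genes. For Slc11a2 the log2 fold change was -0.22 (SE 0.07), adjusted p = 0.0259, and the call was kept in 6 of 16 alternative fits. It was lost without CD1d-KO 1, CD1d-KO 2, WT 2, WT 3 or WT 4. The whole list of 16 was mixed, with 8 fold changes above 0 and 8 below and a median log2 fold change of 0.00, and its iron exporter Slc40a1 had -0.55 (adjusted p = 0.397). The most abundant genes of the list were the brush border phosphatase gene Alpi, lactase (Lct), Fabp1 and the incretin gene Gip. Their log2 fold changes were 0.05, 0.15, 0.53 and 0.02, with adjusted p from 0.492 to 0.989.

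Of 8 further distal genes, 0 were called by DESeq2 and 0 had an unadjusted p under 0.05, with a median log2 fold change of -0.04. The most abundant were Slc51a, a subunit of the basolateral bile acid exporter (log2 fold change -0.13, adjusted p = 0.725), the proglucagon gene Gcg (0.36, adjusted p = 0.705), Cubn, the ileal receptor for intrinsic factor and vitamin B12 (-0.05, adjusted p = 0.979), and the neurotensin gene Nts (0.72, adjusted p = 0.582).

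The bile acid and FXR pathway list had 21 genes, of which 18 were tested and 1 was called, again near the 4.03% of all genes, with a median log2 fold change of 0.06. That gene was Abcc3, which encodes MRP3, a basolateral exporter of organic anions and bile acid conjugates. Abcc3 had normalised counts of 4215, 4459, 4746 and 4363 in CD1d-KO, against 6078, 6158, 5295 and 5689 in WT, so every CD1d-KO sample lay below every WT sample. The means were 4446 ± 224 and 5805 ± 397 (SD, n = 4 each), with a log2 fold change of -0.39 (SE 0.07), adjusted p = 5.72e-06. Abcc3 was called in all 16 alternative fits, with log2 fold changes from -0.54 to -0.35.

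The direct targets and partners of FXR were not called. Nr0b2, the target that encodes SHP, had 31.5 ± 8.42 normalised counts in CD1d-KO and 32.1 ± 6.45 in WT (SD, n = 4 each), with a log2 fold change of -0.03 (adjusted p = 0.987). The exporter subunits Slc51a and Slc51b, also FXR targets, had log2 fold changes of -0.13 and -0.30 (adjusted p = 0.725 and 0.461). Rxra, the partner of FXR, had 0.05 (adjusted p = 0.866), and the vitamin D receptor gene Vdr had 0.06 (adjusted p = 0.818). Malrd1, a regulator of FGF15/19 production, had 0.15 (adjusted p = 0.222). The hepatic enzymes of bile acid synthesis, Cyp7a1 and Cyp8b1, were listed at 0 in all samples.

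The pattern of each member over the 8 samples was compared with those of the 11721 genes averaging 50 or more normalised counts. The measure was the root mean square difference between log2 values scaled to mean 0 and SD 1, in SD, where 0 is an identical pattern. Among the members, the closest pair was Slc10a2 and Fgf15 (0.578), followed by Pdx1 and Gata4 (0.614) and by Fabp6 and Slc10a2 (0.717). Pairs across groups followed at almost the same distance, Gata4 and Cdx2 at 0.724 and Pdx1 and Cdx2 at 0.729, and Fgf15 was closer to Gata4 (0.941) than to Fabp6 (0.965). All of these are descriptions over the same 8 samples. The 2 genes of the whole table most like each member were closer than this, which picking the nearest of 11721 genes makes likely. For Fabp6 they were Znhit1 (0.156) and Mars1 (0.242), for Slc10a2 Ankrd24 (0.166) and Rce1 (0.242), and for Fgf15 Igsf3 (0.213) and Akr1b7 (0.266). For Pdx1 they were Ago2 (0.212) and Ankfy1 (0.217), for Gata4 Zfpm1 (0.230) and 2410004B18Rik (0.255), and for Onecut2 Papolg (0.263) and Cep350 (0.266). Cdx2 was most like Aasdhppt (0.285) and Chuk (0.296), Nr1h4 like Exph5 (0.313) and Ccdc114 (0.330), and Cdx1 like Golm1 (0.372) and Eif4h (0.389), the loosest matches of the 9.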

How the data were processed

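Bulk RNA-seq of IECs was analysed in 8 samples, 4 CD1d-KO and 4 WT, grouped by the genotype label. The authors deposited raw counts of read pairs per gene. Per the file headers, these were made with featureCounts 1.6.4 over exons of an mm10 RefSeq annotation, on primary alignments and without strand, whereas the study's methods name HISAT2 alignment to GRCm39. Coordinates are those of the deposited table, and the difference in build was not resolved. No other gene of the table shares an exon base with a member. No per-sample column was left unused.

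Genotypes were compared with DESeq2 1.42.0 (R 4.3.3), the tool named in the study's methods, with genotype as the only term. The Benjamini-Hochberg adjustment ran over the 15446 genes with a mean normalised count above 2.41, and an adjusted p under 0.05 was called. The script was tested on simulated data. TPM was computed from the deposited counts and gene lengths. Alternatives were edgeR 4.0.16, other size factors, a low-count filter, each sample left out, a replicate block, and fits without or adjusted for Y-linked counts or for a stomach score. This score was the mean over stomach markers of log2 normalised counts, each centred on its own mean but not scaled to a common SD.

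Named genes were the 9 members, the targeted gene, every called gene of each gene list or, with none called, its 4 most abundant genes, and the 2 genes most like each member. The exocrine pancreas, endothelial and erythroid lists, near 0, are given by their sums, and the islet list by its sum and its 3 genes. Other named genes (Slc40a1, Isx, Onecut1, Onecut3, Cdx4, Tff2, the bile acid genes beside Abcc3, genes at 0) were chosen after their values were seen. The members and lists were chosen with earlier results of these data known. The labels do not say which experiment a sample came from, so batch and genotype cannot be told apart.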

Additional observations from a re-analysis of the deposited data

Results flagged for a closer look

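Fabp6 in CD1d-KO 3 stood apart, at 19618 normalised counts beside 9388, 8456 and 7892 in CD1d-KO 1, 2 and 4. The gap to the nearest sample was 0.872 of the range of the 4 samples, above Dixon's 95% critical value for a group of that size. In all, 18 groups of 4 were examined (9 genes in both genotypes), and chance alone flags about 1 in 20 such groups.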

How the results depend on the processing

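Over the 16 alternatives, 129 of 144 member fold changes kept their direction and their side of the threshold, 13 reversed and 2 became calls. Members called ranged from 0 to 1 when 1 sample was left out (1 without CD1d-KO 3, Fabp6, and 1 without WT 1, Pdx1), and genes called over the table from 323 to 646 (323 without CD1d-KO 2, 406 without WT 1 and 385 without WT 2). Genes called were 299 by edgeR (289 shared with the 622), 372 among samples without Y-linked counts (248 shared) and 115 with the stomach score as a term (68 shared), each with 0 members called. The replicate block gave 569 genes and 0 members. Deviations of same-numbered samples correlated at 0.285, 0.025, 0.221 and 0.004 for numbers 1 to 4. These were not set beside differently numbered samples, so they cannot tell whether the numbers pair the samples. Reversed fold changes were those of Cdx2 without CD1d-KO 1 (0.025), WT 3 (0.011) and WT 4 (0.0023), where leaving out 1 sample gave -0.077 to 0.025, of Cdx1 (-0.0017) and Fabp6 (0.057) among samples without Y-linked counts, of Cdx1 (-0.0030) and Fabp6 (0.055) with these counts as a term, and, with the stomach score as a term, of Pdx1 (0.50), Gata4 (0.22), Onecut2 (0.18), Cdx1 (-0.046), Cdx2 (0.18) and Fgf15 (0.052). Their cause was not tested. Without length, Onecut2 ranked 5 and Nr1h4 6. Among the members, counting error was largest for Fgf15 (26 to 223 counts per sample).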

Other observations

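The ileal Fabp6 and the proximal Fabp1 are 2 of the fatty acid binding protein genes of the enterocyte. They were compared within each sample after their values had been seen, 1 of 5 ratios computed. The ratio of Fabp6 to Fabp1 in TPM was 1.11, 0.768, 0.983 and 0.719 in CD1d-KO 1 to 4 and 1.88, 1.12, 1.40 and 1.93 in WT 1 to 4. The lowest WT ratio was just above the highest CD1d-KO ratio, and CD1d-KO 3, highest for Fabp6, was not apart from its genotype in this ratio. Fabp1 had 12645 ± 5076 normalised counts in CD1d-KO and 8762 ± 2108 in WT (SD, n = 4 each), with a log2 fold change of 0.53 (SE 0.34, adjusted p = 0.492 by DESeq2).

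The enterocyte markers had a median log2 fold change of 0.22 with 0 of 9 called (2 at an unadjusted p under 0.05), and the enteroendocrine markers 0.13 with 0 of 7 called (0 at an unadjusted p under 0.05). The most abundant enterocyte markers, Anpep, Sis, Mttp and Apob, had log2 fold changes of -0.01, 0.22, 0.14 and 0.17 (adjusted p from 0.304 to 0.990), and the enteroendocrine genes Chgb, Chga, Tph1 and Isl1 had 0.30, 0.13, 0.16 and 0.07 (adjusted p from 0.633 to 0.908). Without CD1d-KO 1, 5 of the 9 enterocyte markers were called, where 3.22% of all genes were. With any other single sample left out, 0 were called, and among samples without Y-linked counts 3 were. Isx, an intestinal homeobox factor that restrains vitamin A uptake, was chosen after its values were seen and had 5554 ± 772 normalised counts in CD1d-KO and 4599 ± 186 in WT (SD, n = 4 each). Its log2 fold change was 0.27 (adjusted p = 0.0799), and 0.41 (adjusted p = 0.000443) with only the 6 samples without Y-linked counts. Nts was likewise 1.33 (adjusted p = 0.0226 by DESeq2) in those 6 samples. They hold only CD1d-KO 3 and 4 of their genotype, and 2.57% of all genes were called in that fit. With all 8 samples Nts had 0.72 (adjusted p = 0.582). Its normalised counts in CD1d-KO 1 and 2, 735 and 544, lay within the WT range of 489 to 1164.

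CD1d-KO 3 was the highest of the CD1d-KO samples for 4 of 7 distal genes and for 4 of 14 proximal genes, counted over list genes averaging 50 or more normalised counts, members left out. It was the lowest of the CD1d-KO samples for none of either. Over 13 bile acid and FXR pathway genes it was the highest for 4 and the lowest for 5.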
